A study of Mus musculus with 4 samples.

Results

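The transcripts described here are the 37 genes of the mouse mitochondrial genome, chosen because their symbols in the deposited expression table start with mt-, out of 49585 genes in all. They comprised 13 protein–coding genes, 2 rRNA genes and 22 tRNA genes, and 25 of the 37 reached 1 FPKM in some library (all 13 protein–coding genes, both rRNA genes and 10 tRNA genes). FPKM is the number of sequenced fragments per kilobase of a gene, scaled to a total number of fragments for the library. Levels of different genes in a library can thus be set side by side. RNA was measured in 4T1, a murine mammary carcinoma line used as a model of triple–negative breast cancer. 4T1–HM and 4T1–LM were each grown from a single cell of that line, so that each stands for 1 clone. HM_Ctrl and LM_Ctrl were the clones kept in the solvent DMSO, HM_DFX and LM_DFX were the same clones kept for 48 h in 50 μmol/L of the iron chelator deferasirox (DFX) dissolved in DMSO, and each of the 4 groups was 1 library. The spread between cultures could not be estimated from 1 library a group, so no test was made, and all intervals below are 95% intervals of counting error only.

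The total number of fragments that the FPKM values imply was between 14363065 (HM_DFX) and 21883853 (LM_DFX). Which fragments the authors counted in that total is not given. Genes with recovered whole fragments held between 77.5% (LM_DFX) and 78.3% (LM_Ctrl) of it. Shares of fragments in a library are shares of this implied total. Epithelial markers were present, with Krt8 at 134 to 963 FPKM and Epcam at 13.5 to 29.3 FPKM, whereas Krt5 was listed at 0 in all 4 libraries. The summed FPKM of the 8 epithelial markers was 1767 in HM_Ctrl against 565 in HM_DFX, and 2298 in LM_Ctrl against 1072 in LM_DFX. Of the 7 that reached 1 FPKM, 7 were lower with DFX in 4T1–HM and 6 in 4T1–LM. Krt19 went the other way in 4T1–LM, with 46.4 FPKM in LM_Ctrl against 103 in LM_DFX. Between the untreated clones, Krt14 had 2.48 FPKM in HM_Ctrl against 54.3 in LM_Ctrl. Of the leukocyte markers, Ptprc, Cd3e, Itgam and Adgre1 were at or near 0 in all 4 libraries. The summed FPKM of the leukocyte list was 12.9 and 12.3 in HM_Ctrl and LM_Ctrl against 37.4 and 83.1 in HM_DFX and LM_DFX, nearly all of it from Cd68. None of the 4 endothelial markers and, of 5 fibroblast markers, only Pdgfra reached 1 FPKM. The part of these marker genes in the results was not tested.

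The mitochondrial genome is a small circle that is transcribed from both strands into long precursors. Most tRNA genes lie between the rRNA and protein–coding genes, and cutting the tRNAs out of a precursor releases the mRNAs and rRNAs on either side. The proteins are core subunits of respiratory chain complexes I, III and IV and of the ATP synthase (complex V), several of which work with heme, copper or iron–sulfur clusters. The libraries were made from RNA selected for poly(A) tails, and the protocol also names a removal of rRNA without saying which rRNAs were targeted. Most mitochondrial mRNAs carry such a tail, mitochondrial rRNAs carry short ones, and the mRNA of mt-Nd6 is generally described as having none.

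The gene order is visible where mt-Rnr2, the large rRNA, gives way to mt-Nd1, a complex I subunit. The stretch chrM:2636-2790 (mm10, plus strand) is shown because it holds mt-Tl1, a tRNA for leucine and the tRNA gene with the most fragments in both DMSO libraries. Its 75 bases are in capitals, with 40 bases of mt-Rnr2 before and 40 bases at the start of mt-Nd1 after it.
mt-Rnr2 to mt-Nd1: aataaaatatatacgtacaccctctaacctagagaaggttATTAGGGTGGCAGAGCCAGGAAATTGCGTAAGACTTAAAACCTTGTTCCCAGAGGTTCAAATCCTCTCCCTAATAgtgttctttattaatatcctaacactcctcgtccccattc
No base lies between the 3 genes. Of the 13 protein–coding genes, mt-Nd4, mt-Co3 and mt-Cytb have lengths that are no multiple of 3. Their last 24 bases are shown with the final base, which is left over after the last whole codon, in capitals, and mt-Nd6, which lies on the minus strand and ends in a full stop codon (capitals), is given for contrast.
mt-Nd4 at chrM:11521-11544: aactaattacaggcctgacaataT
mt-Co3 at chrM:9367-9390: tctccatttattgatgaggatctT
mt-Cytb at chrM:15265-15288: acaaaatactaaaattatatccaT
mt-Nd6 at chrM:13552-13575: attatcgagattactcgagatTAA
Such a leftover T is known to become a UAA stop codon once a poly(A) tail is added. mt-Nd6 was 1 of 9 genes on the minus strand, the other 8 being tRNA genes.

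Part of the mitochondrial sequence also exists in the nuclear genome, which bears on the levels that can be read. The overlap was measured as the share of each gene's 31-base words that also occur in the transcript of a nuclear gene. mt-Co2 (100%), mt-Co3 (99.9%), mt-Atp6 (99.5%), mt-Nd4l (98.9%) and mt-Nd3 (98.1%) shared nearly all of theirs, mt-Co1 63.9% and mt-Nd4 62.8%. The remaining 6 protein–coding genes shared between 0% (mt-Nd1) and 16.8% (mt-Nd5), mt-Rnr2 shared 2.71% and mt-Rnr1 none. The 7 genes above 20% are called uncertain, because how fragments that map to several places were counted is not given in the sources used here.

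The copies of those 7 genes lie side by side at chr1:24611535-24616197 (mm10, minus strand). 5 of the 7 copies were identical to the mitochondrial gene over their whole length, namely Gm28661 (mt-Co2), Gm10925 (mt-Atp6), Gm28437 (mt-Co3), Gm10222 (mt-Nd4l) and Gm28439 (bases 1 to 876 of mt-Nd4). Gm29216 differed from bases 1054 to 1545 of mt-Co1 at 6 positions, and Gm28438 differed from mt-Nd3 at a single position, T3C, counted from 1 at the first base of the gene with the mitochondrial base first. The first bases of 2 pairs are shown because a fragment from them can be placed only by that base, which is in capitals, or not at all.
mt-Nd3: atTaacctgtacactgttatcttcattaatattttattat
Gm28438: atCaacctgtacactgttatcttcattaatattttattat
mt-Co2: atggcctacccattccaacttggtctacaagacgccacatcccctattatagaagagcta
Gm28661: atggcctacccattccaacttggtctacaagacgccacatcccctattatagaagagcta
The 7 copies had between 1.71 and 24.5 FPKM in the 4 libraries, and the 5 mitochondrial genes that shared more than 95% had between 0.913 and 53.3 FPKM. mt-Co2 and its copy Gm28661 had 41.9 and 20.9 FPKM in HM_Ctrl, and mt-Nd3 and its copy Gm28438 had 1.89 and 6.58 FPKM there. Neither gene of these pairs was listed above 53.3 FPKM in any library. Further nuclear genes share parts of these sequences, among them Gm13340 with 685 words of mt-Co1 and Gm13341 with 308 words of mt-Co2.

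Levels within a library differed widely between the mRNAs. mt-Co1, the catalytic subunit of complex IV, was the most abundant mitochondrial transcript in every library, with 5098 FPKM in HM_Ctrl against 4248 in HM_DFX, and 3992 in LM_Ctrl against 3902 in LM_DFX. It was the gene of rank 2, 2, 3 and 2 among all genes of these libraries. mt-Cytb, a heme–bearing subunit of complex III, had 3171 FPKM in HM_Ctrl against 1703 in HM_DFX, and 2484 in LM_Ctrl against 1226 in LM_DFX. mt-Nd1 had 2385, 1459, 2599 and 1107 FPKM in HM_Ctrl, HM_DFX, LM_Ctrl and LM_DFX, the order kept for all such series of values below. These genes were the highest protein–coding members in all 4 libraries, although mt-Cytb was above mt-Nd1 in all libraries except LM_Ctrl.

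Further complex I subunits followed. mt-Nd2 had 1491, 856, 1416 and 620 FPKM in that order. mt-Nd4 had 944, 590, 785 and 617 FPKM in these libraries. mt-Nd5 had 921, 442, 866 and 441 FPKM. The counting intervals of mt-Nd4 and mt-Nd5 overlapped in HM_Ctrl and those of mt-Nd2 and mt-Nd4 in LM_DFX, so that their order there lay within counting error. mt-Nd6, also of complex I, was lower, with 135, 44.4, 101 and 24.5 FPKM, and 14 of its bases overlap mt-Nd5 on the opposite strand.

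The other 6 mRNAs were listed at low levels in all libraries. mt-Co2, which carries the first electron acceptor of complex IV, had 41.9, 25.5, 53.3 and 20.9 FPKM, and mt-Co3, the third core subunit, had 9.60, 7.10, 9.32 and 7.34 FPKM. mt-Atp6, the subunit a of the proton channel of ATP synthase, had 18.7, 9.71, 12.3 and 8.05 FPKM. The complex I subunits mt-Nd3 (1.89, 1.80, 0.913 and 1.58 FPKM) and mt-Nd4l (3.82, 3.99, 2.35 and 4.46 FPKM) had only 5 to 12 and 11 to 29 fragments a library. These 5 genes are the ones that share nearly their whole sequence with chromosome 1.

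mt-Atp8, a small subunit of ATP synthase, was the exception by shared words. It shared only 7.47% of them with annotated nuclear transcripts and yet had 7.61, 1.71, 5.92 and 0.672 FPKM from 26, 5, 19 and 3 fragments. It lies between mt-Co2 and mt-Atp6 and shares its last 43 bases with mt-Atp6 on the same strand. Only annotated transcripts, not the nuclear genome, could be searched for copies of it. On chromosome 1 the copy of mt-Atp6, Gm10925, ends at 24614651 and that of mt-Co2, Gm28661, starts at 24614885. The stretch between them could not be compared with mt-Atp8, so 7.47% may be too low. The whole gene (chrM:7766-7969, mm10) is shown with the bases that also belong to mt-Atp6 in capitals, because fragments from them cannot be given to a single gene.
mt-Atp8: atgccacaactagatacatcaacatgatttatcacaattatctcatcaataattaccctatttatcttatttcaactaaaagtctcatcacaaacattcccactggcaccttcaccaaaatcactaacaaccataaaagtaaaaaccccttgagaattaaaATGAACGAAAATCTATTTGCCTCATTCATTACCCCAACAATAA
In view of this the low levels from mt-Co2 to mt-Nd4l are given as listed values and not as the abundance of those mRNAs.

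**Figure D1:**
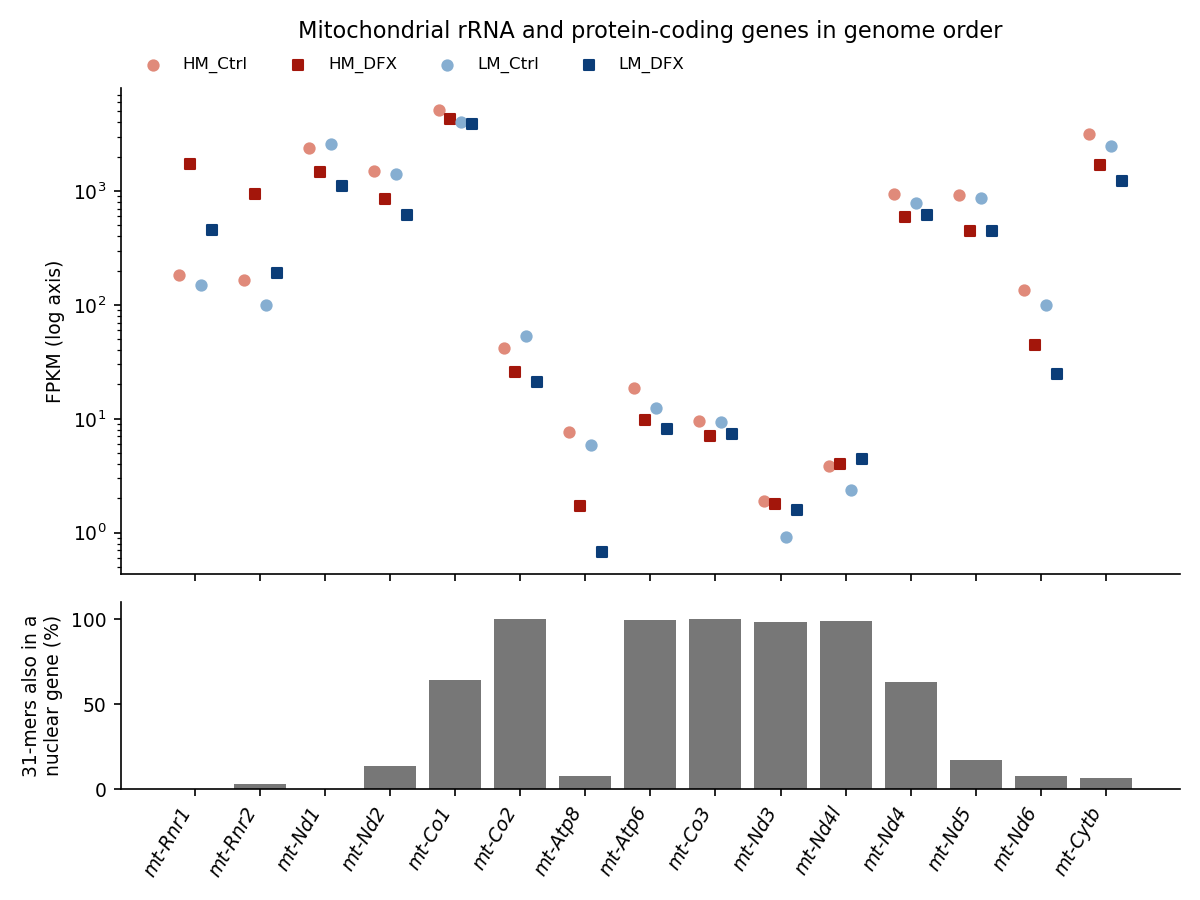
The upper panel plots FPKM on a log axis for the 2 rRNA and 13 protein–coding genes in genome order, with 1 point for each of the 4 libraries (circles for DMSO, squares for DFX). The lower panel gives the percentage of each gene's 31-base words that also occur in a nuclear transcript. The run of low genes from mt-Co2 to mt-Nd4l, between 0.672 and 53.3 FPKM, includes the 5 bars above 95%, while mt-Rnr1 and mt-Rnr2 stand higher in the DFX libraries.

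Summed over all 37 genes, mitochondrial transcripts made up 1.89% of the fragments in HM_Ctrl against 1.56% in HM_DFX, and 1.60% in LM_Ctrl against 1.16% in LM_DFX (exact Clopper–Pearson intervals 1.88 to 1.89, 1.56 to 1.57, 1.60 to 1.61 and 1.15 to 1.16%). The share was smaller with DFX in both clones. The 13 mRNAs alone made up 1.84%, 1.25%, 1.57% and 1.08%, whereas the 2 rRNAs made up 0.0434%, 0.316%, 0.0301% and 0.0737%. mRNAs and rRNAs thus differed from the DMSO libraries in opposite directions. In RNA from bulk cultures, fewer transcripts per cell and a larger pool of other RNA cannot be told apart.

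Between the untreated clones, which the study compared for their metastatic behavior, the mitochondrial mRNAs were listed slightly higher in HM_Ctrl. 11 of 13 had a larger value in HM_Ctrl than in LM_Ctrl. The counting interval lay wholly above the LM_Ctrl level for 7, wholly below it for 2 and held no change for 4. The median log2 ratio of FPKM + 1 was 0.32 for the 13, against 0.01 over the 12669 expressed genes. Expressed genes are those that reached 1 FPKM in some library. The median was 0.20 without the genes over 20% shared. It was 0.18 for genes with at least 100 fragments in every library, a setting chosen after seeing the data. Counts of genes past a fold, here and below, use FPKM + 1, which understates the ratio of low genes, whereas the folds of named genes are ratios of FPKM. None of the 13 differed 2–fold on FPKM + 1, where 3.65% of the expressed genes passed that line upward and 3.15% downward. In FPKM, mt-Nd3 was 2.07–fold higher in HM_Ctrl, from 11 and 5 fragments (0.662 to 7.59). At 1.5–fold on FPKM + 1, mt-Nd3 was higher in HM_Ctrl and none was lower, where 10.5% and 8.70% of the expressed genes were. In FPKM, mt-Nd4l and mt-Atp6 were also past 1.5–fold, at 1.62 (0.734 to 3.77) and 1.52 (1.21 to 1.90). mt-Co1 and mt-Cytb were 1.28–fold higher in HM_Ctrl (intervals 1.27 to 1.29 and 1.26 to 1.29). mt-Nd1 was listed at 0.918 times its LM_Ctrl level (0.905 to 0.931), and mt-Co2 at 0.787 times (0.696 to 0.890). Of the rRNAs, mt-Rnr2 was 1.63–fold (1.55 to 1.71) and mt-Rnr1 1.22–fold (1.16 to 1.29) higher in HM_Ctrl.

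With DFX, the study asked how each clone responds to iron chelation, and most mitochondrial mRNAs were lower in the treated library of both clones. In 4T1–HM, 12 of 13 had a smaller value in HM_DFX than in HM_Ctrl and 11 had a counting interval wholly below the DMSO level. The median log2 ratio was −0.71, against −0.10 over all expressed genes. In 4T1–LM, 11 of 13 had a smaller value in LM_DFX, 10 of them beyond counting error, with a median of −0.97 against −0.04. At least 2–fold lower were 3 of 13 in 4T1–HM, where 12.4% of the expressed genes were, and 6 of 13 in 4T1–LM, where 8.72% were. None was at least 2–fold higher in either clone, where 6.93% and 7.09% of the expressed genes were. At 1.5–fold, 9 were lower and 0 higher in 4T1–HM (26.0% and 16% of the expressed genes), and 7 were lower and 1, mt-Nd4l, higher in 4T1–LM (20% and 16.5%).

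The 3 genes past 2–fold in 4T1–HM were mt-Nd5, mt-Nd6 and mt-Atp8. mt-Nd6, the mRNA of the minus strand, had 135 FPKM in HM_Ctrl against 44.4 in HM_DFX and 101 FPKM in LM_Ctrl against 24.5 in LM_DFX. It was thus at 0.330 times the DMSO level in 4T1–HM (0.291 to 0.373) and at 0.243 times in 4T1–LM (0.212 to 0.279), a log2 ratio of −1.58 and −2.00. Among members with at least 100 fragments in every library, mt-Nd6 had the lowest ratio in both clones. It equalled 14.6% of the FPKM of mt-Nd5 in HM_Ctrl against 10.1% in HM_DFX, and 11.6% in LM_Ctrl against 5.55% in LM_DFX. mt-Atp8 had log2 ratios of −1.67 and −2.05, which rest on 5 and 3 fragments in the DFX libraries.

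The abundant plus–strand mRNAs that share little with nuclear genes were all lower with DFX. mt-Nd5 was at 0.480 times the DMSO level in 4T1–HM (0.469 to 0.490) and at 0.509 times in 4T1–LM (0.500 to 0.519). mt-Cytb was at 0.537 times (0.530 to 0.545) and 0.494 times (0.486 to 0.501). As deposited, mt-Nd5 was slightly lower in 4T1–HM and mt-Cytb slightly lower in 4T1–LM, relative to their own DMSO library. After median–ratio scaling the log2 ratio of mt-Nd5 was −0.92 in both clones, whereas mt-Cytb kept its order (−0.76 in 4T1–HM and −0.97 in 4T1–LM). mt-Nd1 was at 0.612 times in 4T1–HM (0.601 to 0.622) and at 0.426 times in 4T1–LM (0.419 to 0.433), and mt-Nd2 was at 0.574 times (0.562 to 0.587) and 0.438 times (0.429 to 0.447). Both were lower in 4T1–LM than in 4T1–HM, relative to their own DMSO library. With the members over 20% shared left out, the median of the remaining 6 was −0.98 in 4T1–HM and −1.21 in 4T1–LM. These 6 include mt-Atp8, for which only annotated transcripts could be searched.

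Of the abundant mRNAs, mt-Co1 was listed closest to its DMSO level in both clones. It was at 0.833 times the DMSO level in 4T1–HM (0.826 to 0.840) and at 0.978 times in 4T1–LM (0.970 to 0.986), and in 4T1–LM its log2 ratio of −0.03 was 0.019 when libraries were scaled by median ratios. As the other abundant mRNAs were lower, mt-Co1 made up 42.7% of mitochondrial mRNA fragments in HM_Ctrl against 52.6% in HM_DFX, and 39.2% in LM_Ctrl against 55.7% in LM_DFX. The ratio of mt-Co1 to mt-Cytb in FPKM was 1.61 in both DMSO libraries against 2.49 in HM_DFX and 3.18 in LM_DFX. mt-Nd4, the other abundant gene with a copy on chromosome 1, was at 0.625 times in 4T1–HM (0.611 to 0.639) and at 0.786 times in 4T1–LM (0.770 to 0.803). mt-Co1 and mt-Nd4 both share over 60% of their words with nuclear genes, and the part of those copies in these ratios was not tested. The chromosome 1 copies of mt-Co1 and mt-Nd4, Gm29216 and Gm28439, had at most 8.25 and 5.81 FPKM. As the counting of fragments that map to several places is unknown, these values do not measure the part of the copies. Gm13340, which shares 685 words with mt-Co1 against 449 for Gm29216, is not included in them.

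The low genes gave less certain ratios. mt-Co2 had log2 ratios of −0.69 in 4T1–HM and −1.31 in 4T1–LM, and mt-Atp6 of −0.88 and −0.56. mt-Co3 had −0.39 and −0.31, of which only the first had a counting interval clear of 0. For mt-Nd3 (−0.04 and 0.43, the first being 0.047 after median–ratio scaling) and mt-Nd4l (0.05 and 0.70), both intervals held no change, so that a difference was not detectable at this depth.

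**Figure D2:**
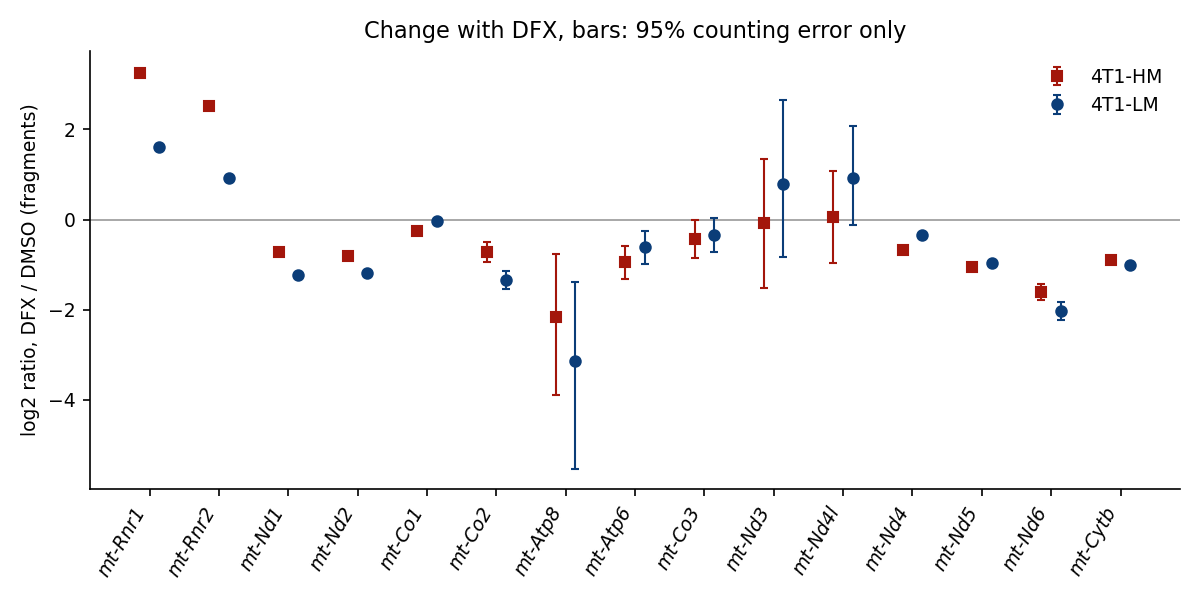
The log2 ratio of DFX to DMSO, from fragments per library size, is plotted for the 2 rRNA and 13 protein–coding genes in genome order, with squares for 4T1–HM, circles for 4T1–LM and bars for the 95% counting interval. Both rRNAs lie above 0 in both clones, mt-Nd6 and mt-Atp8 lie lowest, and mt-Nd3 and mt-Nd4l have bars that cross 0.

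Another scaling of the libraries moved genes near the 2–fold line. Median–ratio scaling moved the median of all expressed genes in 4T1–HM from −0.10 to 0.0022, and the median of the 13 mRNAs from −0.71 to −0.57. mt-Nd5 was then at −0.92 in 4T1–HM, leaving 2 of 13 past 2–fold, and mt-Cytb at −0.97 in 4T1–LM, leaving 5 of 13. Over all expressed genes, 878 were at least 2–fold higher and 1568 lower in HM_DFX as deposited, and 1128 higher and 1277 lower after this scaling. In LM_DFX, 898 were higher and 1105 lower as deposited, and 970 higher and 1010 lower after it.

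Both mitochondrial rRNAs were higher with DFX in both clones. mt-Rnr1, the small rRNA, had 182 FPKM in HM_Ctrl against 1736 in HM_DFX, and 149 in LM_Ctrl against 454 in LM_DFX. Its rank among all genes went from 234 in HM_Ctrl to 9 in HM_DFX and from 297 in LM_Ctrl to 91 in LM_DFX. It was 9.51–fold higher with DFX in 4T1–HM (9.15 to 9.89) and 3.05–fold higher in 4T1–LM (2.91 to 3.19). mt-Rnr2 had 164, 948, 100 and 191 FPKM in HM_Ctrl, HM_DFX, LM_Ctrl and LM_DFX, a 5.78–fold difference in 4T1–HM (5.60 to 5.97) and a 1.91–fold difference in 4T1–LM (1.82 to 2.00). At least 2–fold higher were thus both rRNAs in 4T1–HM, where 6.93% of the expressed genes were, and mt-Rnr1 in 4T1–LM, where 7.09% were.

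Relative to the mRNAs of the same genome, there were 2.35 rRNA fragments per 100 mRNA fragments in HM_Ctrl and 25.3 in HM_DFX. In 4T1–LM there were 1.91 in LM_Ctrl and 6.80 in LM_DFX. The ratio of mt-Rnr1 to mt-Rnr2 in FPKM was 1.11, 1.83, 1.48 and 2.37 in HM_Ctrl, HM_DFX, LM_Ctrl and LM_DFX, so that mt-Rnr1 gained on mt-Rnr2 with DFX in both clones. These ratios do not depend on how libraries are scaled.

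Some other structural RNAs that poly(A) selection or rRNA removal should make scarce moved with the mitochondrial rRNAs, and their part in the result was not tested. They were chosen after the values of the rRNAs were seen. Rn7sk, an untailed nuclear RNA that restrains transcription elongation, had 3.61 FPKM in HM_Ctrl against 73.8 in HM_DFX, and 0.960 in LM_Ctrl against 28.6 in LM_DFX, from 20, 351, 5 and 207 fragments. Rpph1, the RNA of RNase P, had 1, 16, 2 and 8 fragments in the same order. Rmrp and Terc had at most 5 fragments in any library and none in HM_DFX.

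Of 3 genes on the chromosome 17 copy of nuclear rRNA, Gm26917 had 83.8 FPKM in HM_Ctrl against 1188 in HM_DFX, and 39.5 in LM_Ctrl against 271 in LM_DFX. Gm42418 had 259, 925, 258 and 438 FPKM. Rn18s-rs5, which overlaps Gm42418 on the opposite strand, had 4.92, 20.5, 4.74 and 6.69 FPKM. Each of these was higher in the DFX library of its clone. Gm26917, Gm42418 and Rn18s-rs5 were higher by larger factors in 4T1–HM (14.2, 3.57 and 4.16) than in 4T1–LM (6.86, 1.70 and 1.41). So were both mitochondrial rRNAs and, from 1 and 2 fragments in the DMSO libraries, Rpph1 (18.7 and 2.88). For Rn7sk the factors were 20.5 and 29.8, but it had only 5 fragments in LM_Ctrl. On FPKM + 1 its log2 ratios were 4.02 and 3.92, so the order of the clones is not settled for Rn7sk. mt-Nd6, whose mRNA is described as untailed, was lower with DFX. The part of poly(A) tails in any of these differences was not tested.

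**Figure D3:**
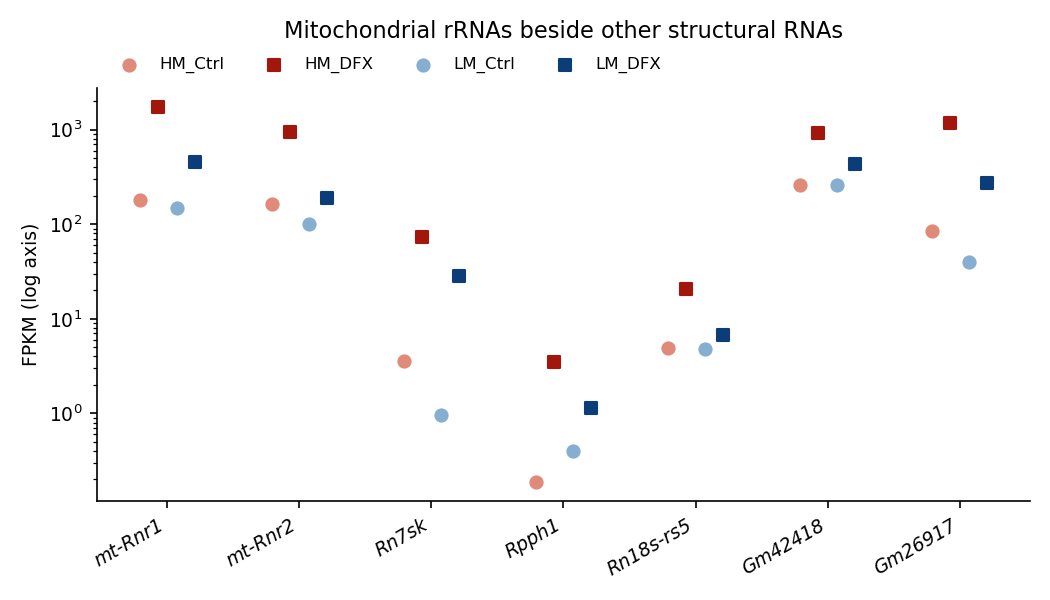
FPKM on a log axis for both mitochondrial rRNAs, for Rn7sk and Rpph1, and for 3 genes on the chromosome 17 copy of nuclear rRNA, with 1 point for each library (circles for DMSO, squares for DFX). In each of the 7 genes the DFX library lies above the DMSO library of the same clone. Rmrp and Terc are left out because they had 0 fragments in a library.

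The tRNA genes are 59 to 75 bases long, shorter than the reads of 150 bases, so that a read of full length extends beyond the gene. Together they had 147 fragments in HM_Ctrl against 31 in HM_DFX, and 105 in LM_Ctrl against 24 in LM_DFX, and 9 of the 22 had none in any library. 4 tRNA genes had at least 10 fragments in a library. mt-Tl1, shown above between mt-Rnr2 and mt-Nd1, had 57 fragments in HM_Ctrl against 3 in HM_DFX, and 51 in LM_Ctrl against 5 in LM_DFX. It was at 0.061 times the DMSO level in 4T1–HM (0.012 to 0.189) and at 0.070 times in 4T1–LM (0.022 to 0.175), although mt-Rnr2 next to it was higher with DFX in both clones.

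mt-Tq, the tRNA for glutamine on the minus strand, had 25, 3, 17 and 3 fragments in HM_Ctrl, HM_DFX, LM_Ctrl and LM_DFX. mt-Tp, the tRNA for proline on the same strand, had 19, 8, 17 and 6 fragments. mt-Tw, the tRNA for tryptophan, had 28, 12, 8 and 5. In each of these the DFX library held fewer fragments than its DMSO library. The counting interval of the ratio held no change for mt-Tp in 4T1–HM (0.186 to 1.17) and for mt-Tw in both clones (0.231 to 1.01 and 0.116 to 1.56). The remaining 18 tRNA genes had 18, 5, 12 and 5 fragments in all.

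The response to DFX differed most between the clones for the rRNAs. The log2 ratio of mt-Rnr1 was 3.24 in 4T1–HM and 1.60 in 4T1–LM, a difference of 1.64 (1.56 to 1.73), and that of mt-Rnr2 was 2.52 and 0.92, a difference of 1.60 (1.52 to 1.68). For the mRNAs as deposited, the difference lay above 0 beyond counting error in 5 genes and below it in 3, with 5 undecided. Those below include mt-Nd5 at −0.09 (−0.13 to −0.04), whose log2 ratio was −0.92 in both clones after median–ratio scaling. mt-Nd1 differed by 0.52 (0.49 to 0.56) and mt-Nd2 by 0.39 (0.35 to 0.43), their ratios being lower in 4T1–LM. mt-Nd4 differed by −0.33 (−0.37 to −0.29) and mt-Co1 by −0.23 (−0.25 to −0.21), their ratios being lower in 4T1–HM. The median difference over the 13 was −0.08, and it was 0.0018 after median–ratio scaling. With 1 library a group, no difference between the clones could be tested.

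Set side by side under DFX, the clones differed by less than 2–fold on FPKM + 1 in all 13 mRNAs, where 3.31% of the expressed genes passed that line upward and 5.05% downward in HM_DFX. In FPKM, mt-Atp8 was 2.54–fold higher in HM_DFX, from 5 and 3 fragments (0.494 to 16.4). At 1.5–fold on FPKM + 1, mt-Nd6 and mt-Atp8 were the 2 genes higher in HM_DFX and none was lower, where 9.95% and 14.6% of the expressed genes were. The median log2 ratio of HM_DFX to LM_DFX was 0.24, against −0.05 over all expressed genes. mt-Nd6 was 1.81–fold higher in HM_DFX (1.54 to 2.14), mt-Cytb 1.39–fold (1.37 to 1.41) and mt-Nd2 1.38–fold (1.35 to 1.41). mt-Nd5 was at the same level in both, at a ratio of 1.00 (0.979 to 1.03). mt-Rnr1 was 3.82–fold (3.73 to 3.91) and mt-Rnr2 4.95–fold (4.82 to 5.09) higher in HM_DFX. This comparison shares libraries with both DFX comparisons above.

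The nuclear genes that encode the partner subunits of the same complexes had medians closer to 0 as a whole. Of 70 expressed nuclear subunits of complexes I, III, IV and V, none was past 2–fold in 4T1–HM, and their median log2 ratio was −0.40. In 4T1–LM their median was −0.23, with 1 gene, Ndufv3 of complex I, at least 2–fold higher and 0 lower. Ndufv3 had 14.9, 12.9, 11.5 and 28.9 FPKM. By complex, the medians of nuclear and mitochondrial subunits in 4T1–HM were −0.37 and −0.71 for complex I, −0.32 and −0.90 for complex III, where mt-Cytb is the single mitochondrial gene, −0.47 and −0.39 for complex IV and −0.47 and −1.27 for complex V. In 4T1–LM they were −0.14 and −0.97, −0.12 and −1.02, −0.33 and −0.31, and −0.28 and −1.30. Complex IV was the one complex whose mitochondrial median was not below the nuclear one, and all 3 of its mitochondrial genes are among the uncertain ones. The complex V medians rest on mt-Atp6, also uncertain, and on mt-Atp8, which had 3 to 26 fragments a library. Of complex I, mt-Nd3, mt-Nd4l and mt-Nd4 are uncertain too.

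**Figure D4:**
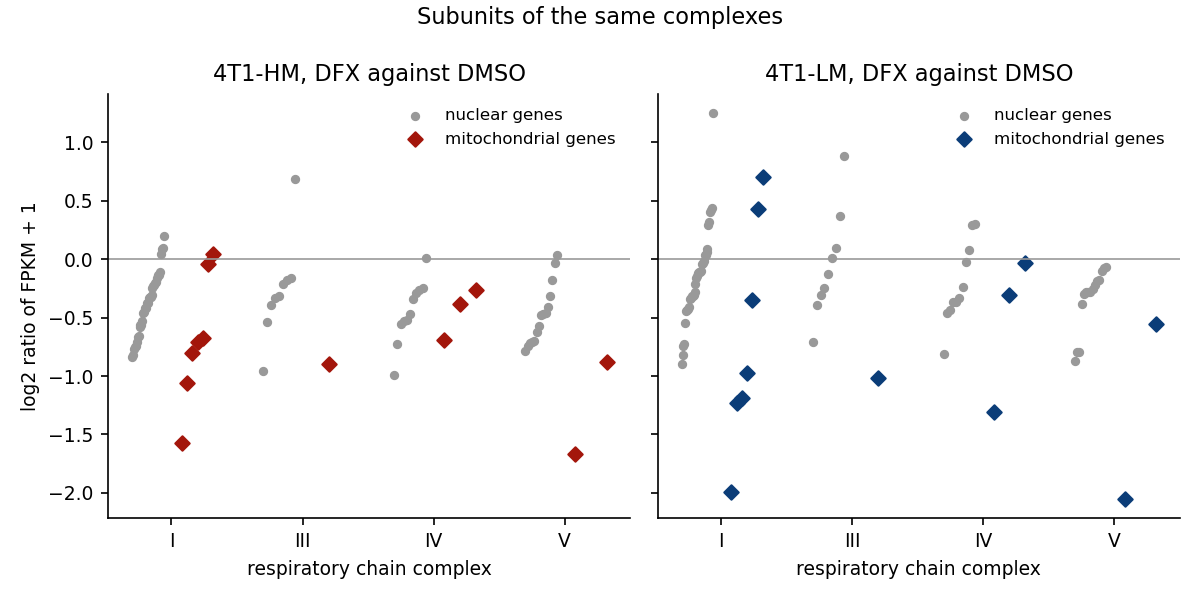
The log2 ratio of FPKM + 1 between DFX and DMSO is plotted for 4T1–HM (left) and 4T1–LM (right), with a gray dot for each expressed nuclear subunit and a diamond for each mitochondrial gene of complexes I, III, IV and V. Nuclear subunits lie between −0.99 and 0.69 in 4T1–HM, while mt-Nd5 (−1.06), mt-Nd6 (−1.58) and mt-Atp8 (−1.67) lie below them.

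Nuclear genes that copy, process and translate the mitochondrial genome had members on both sides of 0. Of 111 expressed genes, 2 were at least 2–fold higher and 8 lower in 4T1–HM (median −0.06), and 2 higher and 5 lower in 4T1–LM (median −0.15). Of all expressed genes, 6.93% were higher and 12.4% lower in 4T1–HM, and 7.09% higher and 8.72% lower in 4T1–LM. In the list of transcription factors and activators, 8 of 16 were below 0 in 4T1–HM and 13 of 16 in 4T1–LM (medians 0.01 and −0.27). Polrmt, the mitochondrial RNA polymerase, had 8.13 FPKM in HM_Ctrl against 5.74 in HM_DFX, and 7.16 in LM_Ctrl against 5.44 in LM_DFX. Tfam, which packages the DNA and starts transcription, had 9.72, 7.08, 10.2 and 7.56 FPKM. Both were listed lower with DFX in both clones, by less than 2–fold. Tfb2m, the other initiation factor, had 10.7, 14.7, 11.7 and 8.62 FPKM, higher with DFX in 4T1–HM and lower in 4T1–LM. Tefm, the elongation factor, had 10.5 FPKM in HM_Ctrl against 4.66 in HM_DFX, and 8.02 in LM_Ctrl against 4.98 in LM_DFX, and it was past 2–fold in 4T1–HM. Twnk, the replicative helicase, had 14.7, 16.4, 15.0 and 6.96 FPKM and was past 2–fold in 4T1–LM.

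Among genes that act on the RNA itself, Trmt10c and Hsd17b10 encode partners in the complex that cuts the 5′ ends of mitochondrial tRNAs. Trmt10c had 10.4 FPKM in HM_Ctrl against 34.1 in HM_DFX, and 10.8 in LM_Ctrl against 33.5 in LM_DFX, and was past 2–fold higher in both clones. Hsd17b10 had 42.7, 18.1, 57.1 and 33.0 FPKM, lower with DFX and past 2–fold in 4T1–HM. The 2 partners named here thus differed from the DMSO libraries in opposite directions, which does not describe the complex as a whole. Trit1, a tRNA–modifying enzyme, had 8.47, 16.4, 7.25 and 16.1 FPKM, and Gtpbp3, another, had 11.5, 4.65, 9.83 and 5.06 FPKM. Lrpprc, which binds and stabilizes mitochondrial mRNAs, had 21.2, 18.5, 19.3 and 19.5 FPKM, with log2 ratios of −0.19 and 0.01.

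The list of mitochondrial aminoacyl–tRNA synthetases, which charge the tRNAs, held 22 genes. Among them were Qrsl1, Gatb and Gatc, which amidate a charged tRNA and are not synthetases. On FPKM + 1, 4 of the 22 were at least 2–fold lower in 4T1–HM, where 12.4% of all expressed genes were. In 4T1–LM it was 3 of the 22, where 8.72% were. None was at least 2–fold higher on that scale, although Lars2, for leucine, had 22.7 FPKM in HM_Ctrl against 46.2 in HM_DFX (log2 ratio of FPKM + 1 of 0.99). Aars2, for alanine, had 5.99, 2.08, 9.49 and 2.42 FPKM and was past 2–fold in both clones. Iars2, for isoleucine, had 14.5, 6.24, 15.7 and 10.1 FPKM and was past 2–fold in 4T1–HM. The 14 translation factors that could be matched had medians of −0.30 and −0.25, with 10 of 14 below 0 in each clone and none past 2–fold.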

How the data were processed

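Poly(A)–selected RNA of 4 cultures was sequenced by the authors as 150–base paired reads, 1 library a group. The deposited FPKM values were made by the authors. The submitters' processing notes name FastQC, Trimmomatic, HISAT2, featureCounts and mm10. Strand setting, treatment of multiply mapping reads and gene lengths are not given in the sources used here. Fragments were recovered from FPKM and GENCODE M21 exon lengths. All 37 genes gave whole fragments within 0.02, and 96.8% of 18235 genes with coordinates did. Sequences and coordinates came from GENCODE M21 (GRCm38).

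Ratios were log2 of FPKM + 1, with 2–fold called and 1.5–fold also counted, among genes that reached 1 FPKM in some library. Counting intervals were exact Clopper–Pearson for shares and conditional binomial for ratios, and normal on log fragments for differences between clones. Python 3.11.15, numpy 2.4.6, pandas 2.3.3, scipy 1.17.1 and matplotlib 3.10.9 were used. Only the calling of folds and the counting interval of ratios were run on simulated counts, which held no spread between cultures. All 37 genes were counted. All 13 protein–coding and both rRNA genes were named, as were tRNA genes with at least 10 fragments in a library and nuclear genes past 2–fold that reached 5 FPKM in the higher of both libraries, at most 3 a list and comparison. Polrmt, Tfam, Tfb2m and Lrpprc were named whatever their change. 1 listed nuclear gene, Mtrfr, was not matched. Members and lists were chosen with earlier results of these data known. Some listed genes are not reported here by name.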

Additional observations from a re-analysis of the deposited data

How the results depend on the processing

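With 1 library a group, the limits are the unknown spread between cultures, the depth of genes with few fragments, and fragments shared with nuclear copies. No paired analysis was possible because each group is 1 library, and no library could be left out for the same reason. The median log2 ratio of the 13 mRNAs in HM_DFX against HM_Ctrl was −0.71 as reported, −0.57 with median–ratio scaling, −0.98 without genes over 20% shared and −0.75 for genes with at least 100 fragments in every library, a setting chosen after seeing the data. In LM_DFX against LM_Ctrl it was −0.97, −0.92, −1.21 and −1.10. At 1.5–fold, 1 mRNA was higher in HM_Ctrl than in LM_Ctrl, 9 were lower in HM_DFX (26.0% of expressed genes) against 3 at 2–fold, 1 was higher in LM_DFX, and 2 were higher in HM_DFX than in LM_DFX, where a pseudocount of 0.1 gave 1 at 2–fold. The share of fragments from the mitochondrial genome was 1.84%, 1.25%, 1.57% and 1.08% in HM_Ctrl, HM_DFX, LM_Ctrl and LM_DFX for mRNAs only and also without the rRNAs, and 4.52%, 3.69%, 3.75% and 2.53% as a share of summed FPKM. The median difference of the DFX response between the clones turned from −0.08 to 0.0018 with median–ratio scaling. All 16 values of the rRNAs under other scalings and pseudocounts had the sign reported. The cause of these shifts was not tested beyond what each setting leaves out.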

Other observations

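The nuclear enzymes that charge the 4 tRNA genes named above were on the list of synthetases, and these pairs were chosen after the values were seen. Lars2, the partner of the leucine tRNA mt-Tl1, had 22.7 FPKM in HM_Ctrl against 46.2 in HM_DFX, and 22.0 in LM_Ctrl against 39.4 in LM_DFX, while mt-Tl1 had 57, 3, 51 and 5 fragments in these libraries. Lars2 and the fragments counted for mt-Tl1 were thus listed in opposite directions with DFX in both clones. Full-length reads extend beyond the tRNA genes, so such fragments do not measure the level of the tRNAs themselves. Pars2, the partner of the proline tRNA mt-Tp, had 4.01, 1.15, 3.27 and 1.12 FPKM. It was past 2–fold lower with DFX in both clones on FPKM + 1 (log2 ratios −1.22 and −1.01). mt-Tp also had fewer fragments with DFX, although its interval in 4T1–HM held no change (0.186 to 1.17). Wars2, the partner of the tryptophan tRNA mt-Tw, had 4.24, 6.29, 3.05 and 4.40 FPKM and was higher with DFX by less than 2–fold. The glutamine tRNA mt-Tq is charged with glutamate by Ears2 and then amidated by Qrsl1, Gatb and Gatc. Ears2 had 1.85, 1.92, 1.53 and 2.04 FPKM, Qrsl1 had 2.63, 3.93, 3.26 and 2.91, Gatb had 3.76, 2.43, 2.63 and 2.50, and Gatc had 12.3, 10.00, 15.0 and 10.1. Ears2, Qrsl1, Gatb and Gatc each differed by less than 2–fold between DFX and DMSO.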
